A study of Mus musculus and Heterocephalus glaber with 4 samples.

Results

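The 5 mouse genes examined, Trp53, Cdkn1a, Mdm2, Cdkn2a and Cdkn2b, form the core of the p53 and RB checkpoints. Every ATAC-seq peak with at least 1 base within 20 kb of 4 mm9 windows was taken, with Cdkn2a and Cdkn2b sharing a window. This gave 16 of the 75120 peaks of control fibroblasts and 15 of the 63258 peaks of fibroblasts carrying SV40 large T antigen, or 31 of the 138378 peaks in the 2 mouse lists. The whole series holds 302336 peaks, the others being of naked mole rat cells, whose lists were not used here beyond their number. ATAC-seq maps open chromatin by letting a transposase cut accessible DNA and tag it for sequencing. Both mouse libraries came from adult skin fibroblasts at passage 16, grown at 37 °C in EMEM medium with 15% serum, 3% oxygen and 5% CO2, with 50000 cells per reaction. They differed by the introduction of large T antigen, and the labels give no strain, sex, promoter, vector or clone number for either. Each group had 1 library, so no value below has a replicate error and no difference was tested. Fibroblast markers were not examined, since no mm9 annotation was used here.

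p53, the product of Trp53, is a transcription factor that halts the cell cycle or starts apoptosis after stress. It switches on Cdkn1a, which encodes the CDK inhibitor p21, and Mdm2, which encodes the ubiquitin ligase that marks p53 for destruction, closing a feedback loop. Cdkn2a encodes p16INK4a and, from a separate first exon in another reading frame, p19ARF. p16INK4a inhibits CDK4 and CDK6 and so keeps RB active, p19ARF inhibits Mdm2, and the neighbouring Cdkn2b encodes the related inhibitor p15INK4b. Large T antigen is a viral oncoprotein that binds p53 and the RB family, and in cultured mouse fibroblasts expression of the Cdkn2 genes is known for rising with passage and limiting growth.

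The promoters of Cdkn1a, Cdkn2a and Cdkn2b are shown because both Cdkn1a and Cdkn2a have more than 1 start and the peaks distinguish the Cdkn1a starts. Each sequence runs 5′ to 3′ from 250 bases before to 50 bases after a RefSeq start. Capitals mark 3 of the motifs searched on both strands, and TATAA and TGACGTCA were also searched but left in lower case. CATGNNNNNNCATG holds the CATG cores of a pair of adjoining p53 half-sites and occurs in 0.712% of 32851 promoters of this length. TTTNNCGC, an E2F-like core, occurs in 5.17%, and GGGCGG, a GC box, in 35.7%. None of these motifs shares letters with another in the sequences shown.
Cdkn1a upstream start, GRCm38.p6 chr17:29090729-29091028, plus strand: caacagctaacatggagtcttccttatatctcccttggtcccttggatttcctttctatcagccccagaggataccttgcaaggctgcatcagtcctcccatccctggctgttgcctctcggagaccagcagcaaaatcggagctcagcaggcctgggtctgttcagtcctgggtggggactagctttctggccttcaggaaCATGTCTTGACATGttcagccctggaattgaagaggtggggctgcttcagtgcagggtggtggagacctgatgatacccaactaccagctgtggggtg
Cdkn1a downstream start, GRCm38.p6 chr17:29093519-29093818, plus strand: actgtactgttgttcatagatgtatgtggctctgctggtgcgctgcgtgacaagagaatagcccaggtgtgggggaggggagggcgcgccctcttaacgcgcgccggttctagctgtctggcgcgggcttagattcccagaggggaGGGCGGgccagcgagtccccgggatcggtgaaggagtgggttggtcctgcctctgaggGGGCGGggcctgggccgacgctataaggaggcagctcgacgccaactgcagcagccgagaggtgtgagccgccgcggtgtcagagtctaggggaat
Cdkn2a Arf start, GRCm38.p6 chr4:89294570-89294869, minus strand: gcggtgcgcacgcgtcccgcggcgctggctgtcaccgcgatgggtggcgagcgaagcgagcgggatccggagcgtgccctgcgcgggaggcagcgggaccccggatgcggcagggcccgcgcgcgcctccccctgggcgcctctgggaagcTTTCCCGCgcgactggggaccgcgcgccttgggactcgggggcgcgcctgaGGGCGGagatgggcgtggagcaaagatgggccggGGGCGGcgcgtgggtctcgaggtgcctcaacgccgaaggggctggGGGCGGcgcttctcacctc
Cdkn2a p16 start, GRCm38.p6 chr4:89282143-89282442, minus strand: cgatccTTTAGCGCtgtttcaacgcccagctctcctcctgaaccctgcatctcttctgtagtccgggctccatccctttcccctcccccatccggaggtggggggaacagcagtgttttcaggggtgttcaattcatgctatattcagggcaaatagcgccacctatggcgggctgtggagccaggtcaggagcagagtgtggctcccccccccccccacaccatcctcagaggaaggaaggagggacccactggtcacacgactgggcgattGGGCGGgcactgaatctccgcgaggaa
Cdkn2b start, GRCm38.p6 chr4:89310983-89311282, minus strand: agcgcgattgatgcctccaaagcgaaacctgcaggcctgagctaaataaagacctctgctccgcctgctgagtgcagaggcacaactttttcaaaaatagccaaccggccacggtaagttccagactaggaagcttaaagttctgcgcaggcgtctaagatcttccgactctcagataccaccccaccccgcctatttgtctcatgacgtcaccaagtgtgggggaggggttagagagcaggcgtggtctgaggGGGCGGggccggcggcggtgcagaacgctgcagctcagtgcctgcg
The positions in these lines are GRCm38.p6, and the peak positions elsewhere in the text are mm9. The Cdkn1a upstream promoter held the p53-type match 48 to 35 bases before its start and only 2 CpG dinucleotides, against a median of 7 over all promoters. It also held a TATAA match on the other strand, 227 to 223 bases before its start. The Cdkn1a downstream promoter held 23 CpG and 2 GC boxes, with a TATAA run 25 to 21 bases before the start that is not capitalised (TATAA occurs in 24.9% of promoters). The Arf promoter was the richest in CpG of the 7 promoters of the 5 genes, with 45, and had an E2F-like match 99 to 92 bases before the start and 3 GC boxes. The p16 promoter had 12 CpG, an E2F-like match 244 to 237 bases before the start and 1 GC box. The Cdkn2b promoter had 18 CpG, 1 GC box and a TGACGTCA match 46 to 39 bases before the start (TGACGTCA occurs in 1.79% of promoters). A match is a description of letters and shows no binding.

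All 4 loci carried open sites in both lists. The gene starts had a called peak in both, apart from the upstream Cdkn1a start, with the Cdkn2a and Cdkn2b starts placed from spacing alone. The control list had 2 peaks near Trp53, 2 near Cdkn1a, 6 near Mdm2 and 6 in the Cdkn2 window with its flanks. The large T list had 2, 2, 4 and 7. Of the 16 control peaks 15 (93.8%, exact 95% interval 69.8 to 99.8) overlapped a large T peak by at least 1 bp, against 71.2% of all control peaks. In the large T list 14 of the 15 (93.3%, 68.1 to 99.8) had a control counterpart, against 85.2% of that whole list. Where 50% of both peaks had to overlap, the shares were 81.2% of control and 80.0% of large T peaks at these loci, against 67.7% and 80.4% of the lists. These intervals reflect counting error alone, as if adjacent peaks were independent. Each holds its whole-list share (71.2% and 85.2%), and the lists were not matched to these loci for score or width. The 2 library-only peaks were 1 control peak at the 3′ end of Mdm2 and 1 large T peak on the far side of Cdkn2a. Pairing control and large T peaks by longest overlap gave 14 sites, numbered along each gene in the plots. The remaining control peak with a counterpart, at the 20 kb limit of Mdm2, had it just outside that limit.

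The score is the authors' own value per peak, no label or file defines it, and its scale may differ between lists. It is therefore read as a percentile, the share of a list's peaks scoring at or below the peak. Peaks at these loci had a median percentile of 68.5 in control and 67.6 in large T cells, and 50 is the middle of a list by construction. In control cells 3 of 16 and in large T cells 2 of 15 lay above the 90th percentile, where 10.0% of each list lies. In width, 9 of 16 control peaks and 6 of 15 large T peaks were at least 2 kb wide, against 18.2% and 15.2% of the lists. Read depth is unknown, and both the number and the width of called peaks can depend on it.

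**Figure D1:**
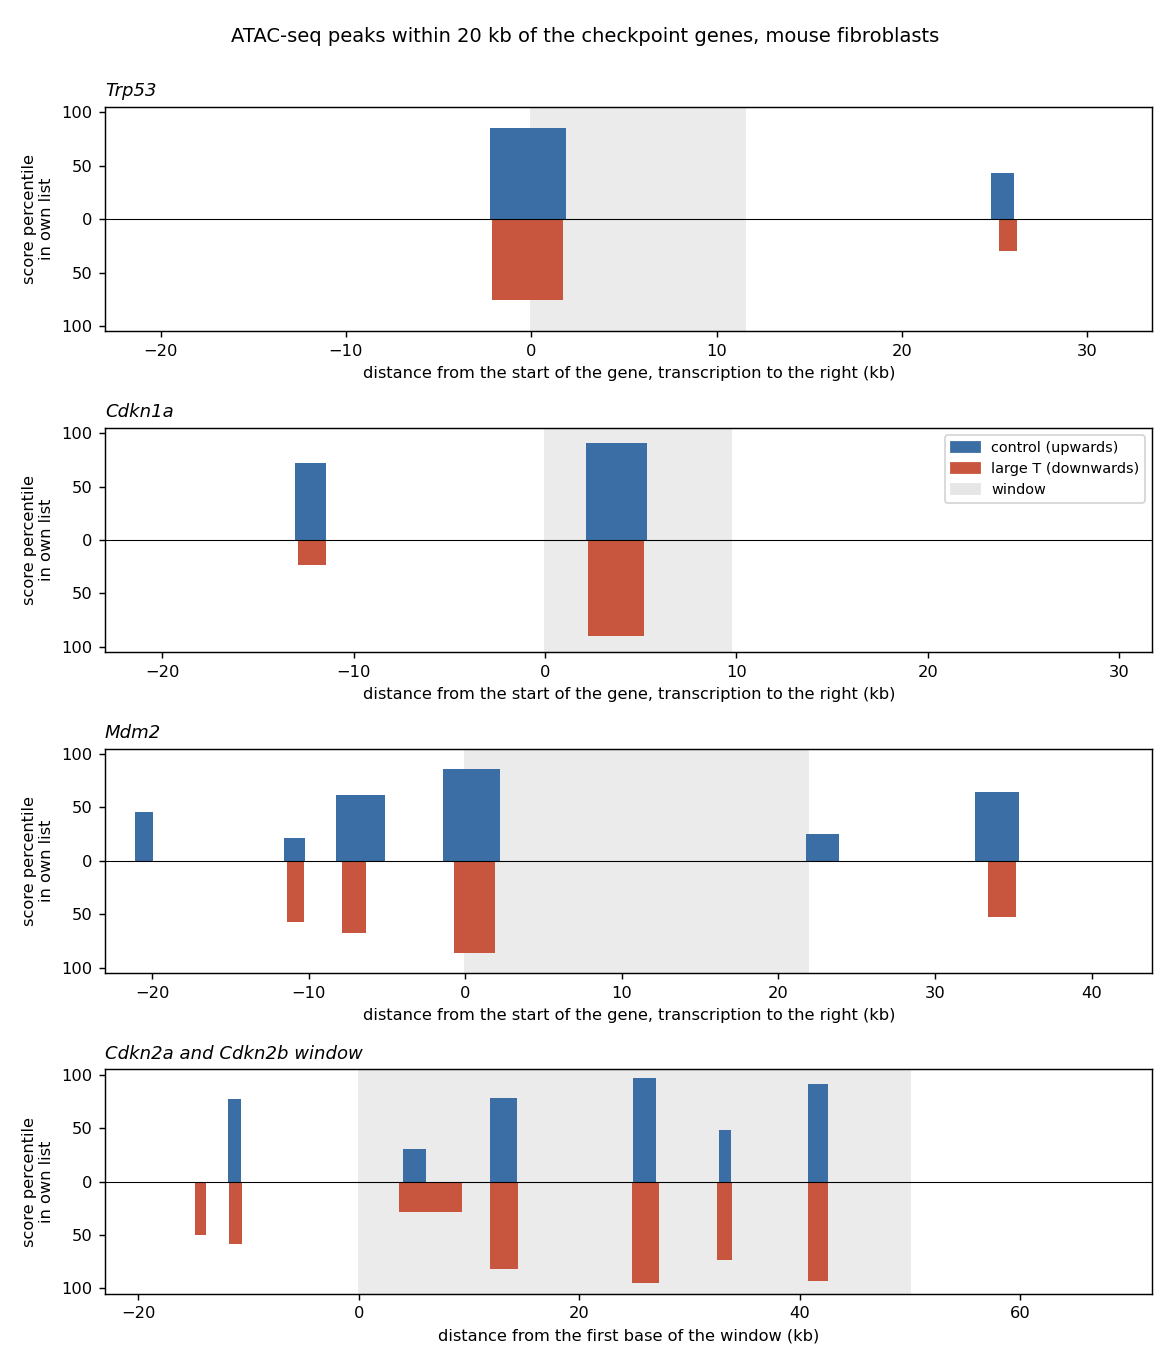
Peaks within 20 kb of each window, as distance in kb along the gene (for Cdkn2, along the chromosome from the first base of the window). Bar width is peak width, bar height is the score percentile within the library's own list, control upwards and large T downwards, and grey marks the window. The Cdkn1a window is bare at its left edge in both lists, and the large T bar near the left of the Cdkn2 window is 5749 bp wide.

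Trp53 had its strongest site at the gene start, open in both lists and lower in rank with large T. In control cells the peak (chr11:69391607-69395740) was 4134 bp wide and scored 354.41, at percentile 85.3. In large T cells it (chr11:69391747-69395554) was 3808 bp wide and scored 274.38, at percentile 75.1. The control peak reached from 2254 bp before the start to 1879 bp after it, and the large T peak lay wholly inside it. Wrap53, which lies next to Trp53 on the opposite strand in the RefSeq table of GRCm38.p6 and encodes a telomerase and Cajal body protein, is the upstream neighbour of this site. The site was among the widest of both lists, at width percentiles 98.5 and 98.7.

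No other peak touched the Trp53 window, so 9.63 kb of the gene in control cells and 9.82 kb in large T cells held no peak. The second site lay beyond the 3′ end, 13.3 kb from the window in control cells (chr11:69418643-69419884), on the side of the neighbour Atp1b2, which encodes a sodium pump subunit. Its percentile was 42.9 in control and 29.5 in large T cells, and its width 1242 and 953 bp. By whole-list percentile the Trp53 sites stood lower with large T by 10.2 and 13.4 points, and shifts at least this far down are common in the lists (32.6% and 26.9% of all 53376 pairs). The shift of the second site was -2.67 points with lists of equal length and -5.02 points when peaks were ranked among shared peaks. The 2 sites together covered 5.38 kb in control and 4.76 kb in large T cells. Their Jaccard index, the bases in both lists over the bases in either, was 0.822, against 0.589 for the whole lists. At the other loci the index was 0.924 (Cdkn1a), 0.541 (Mdm2) and 0.656 (Cdkn2).

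Cdkn1a had a strong site inside the gene that barely differed between the lists, and an upstream site that ranked far lower with large T. The strong site was called at chr17:29230082-29233229 in control cells (3148 bp, score 426.72) and chr17:29230159-29233093 in large T cells (2935 bp, score 431.22). Its percentiles were 90.5 and 89.7, a difference of -0.84 points. It began 2151 bp after the first base of the window in control cells and 2228 bp after it in large T cells.

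The first base of the Cdkn1a window corresponds to the upstream of the 2 RefSeq starts, and the window is 9737 bp long where the RefSeq gene is 9744 bp. In GRCm38.p6 the downstream start lies 2790 bp further along. A point at that distance from the first base of the window falls inside the peak of both lists, while no peak covered the first base of the window in either. The open site was therefore on the side of the CpG-rich promoter with GC boxes printed above. The upstream start, whose promoter holds the p53-type match, lay between the 2 sites, and in both lists it was without a called peak. This says that no peak passed the authors' threshold there, not that the DNA was closed.

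The upstream Cdkn1a site lay 11.4 kb before the window, at chr17:29214859-29216491 in control cells and chr17:29215000-29216503 in large T cells. It scored 240.81 (percentile 72.2) in control and 78.26 (percentile 23.3) in large T cells. The difference of -48.8 points was the largest of the 14 sites by whole-list percentile, and 1.99% of all pairs shifted down at least as far. With lists of equal length it was -43.6 points, smaller in size than the 50.1 points of a site upstream of Mdm2. Its extent hardly differed, at 1633 and 1504 bp with 1492 bp in common. The neighbour on this side is Trp53cor1, the long noncoding RNA lincRNA-p21, a known p53 target. The nearest peaks outside the limit, 26.8 kb before the window in control cells and 26.7 kb in large T cells, had percentiles 80.7 and 76.8.

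Mdm2 had the most peaks for its length in control cells and less covered sequence at each of its paired sites in large T cells. The control list had 6 peaks and the large T list 4, which lay entirely inside control peaks. Covered length was 13.0 kb in control and 7.03 kb in large T cells, or 54.1%, where the whole lists gave 78.6%. The Mdm2 share of covered length was 81.1% within the window itself, 47.3% within 10 kb and 56.4% within 50 kb. Among the highest-scoring 50% of each list it was 73.3%. Cut into tiles of the same 61.9 kb, 4.72% of the genome's tiles held at least 6 control peaks and 14.8% at least 4 large T peaks. These tiles were not chosen to hold genes, and 36.3% held no control peak and 41.5% no large T peak. Tiles of the Trp53 length held at least 2 peaks in 41.8% (control) and 35.1% (large T) of cases, and tiles of the Cdkn1a length in 40.8% and 34.1%. On chromosome 10, which carries Mdm2, the large T list had 78.9% as many peaks as the control list, against 84.2% over all chromosomes.

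The site at the Mdm2 start was called at chr10:117145575-117149237 in control cells (3663 bp, score 359.75) and chr10:117145920-117148550 in large T cells (2631 bp, score 389.44). Its percentile was 85.7 in control and 86.7 in large T cells. In control cells it reached from 1433 bp before to 2229 bp after the start, and in large T cells from 746 bp before to 1884 bp after. Mdm2 is known to have a p53-driven promoter in its first intron, whose place within this peak was not examined. The Mdm2 promoter at the start held 35 CpG, 1 E2F-like match and 2 GC boxes.

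Upstream of Mdm2, a pair of sites ranked higher and was narrower in large T cells. The site at chr10:117152947-117156054 in control cells had percentile 62.0 and was 3108 bp wide, and its large T counterpart (chr10:117154149-117155701) had percentile 67.6 and was 1553 bp wide. Its shift of 5.64 points was 12.8 with lists of equal length, 13.8 among shared peaks, 5.14 within the chromosome and 52.1 by score per base of width. The last value divides by width, so it includes the narrowing of the peak and is not a separate result on rank. Of all pairs, 76.6% shifted no further up than the 5.64 points. The site at chr10:117158050-117159354 scored 74.84 (percentile 21.6) in control and 169.74 (percentile 56.9) in large T cells, with widths of 1305 and 1088 bp. Of all pairs, 97.7% shifted no further up than its 35.4 points. The width ratio was as small or smaller in 3.78% of all pairs for the first of these sites and in 38.0% for the second. On the far side, near Cpm, a carboxypeptidase gene that lies next to the 3′ end of Mdm2, the site at chr10:117112466-117115281 had percentile 64.8 in control and 52.6 in large T cells, with widths of 2816 and 1758 bp. By score per base of width that site was higher in large T cells, by 7.70 points, a value that includes its narrowing.

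The control peak without a large T counterpart lay at the 3′ end of Mdm2, at chr10:117123944-117126015. It was 2072 bp wide with score 80.89 (percentile 25.5), and the nearest large T peak was 9.54 kb away. Over the whole control list, 28.8% of peaks had no counterpart. The sixth control peak (chr10:117167769-117168899, percentile 45.5) reached into the limit by its edge, 19965 bp from the window, and its large T counterpart (chr10:117167843-117168945, percentile 25.8) lay 20039 bp from the window, just outside. At the other loci the nearest peaks outside the limit were 24.5 kb or more from the window. By peak midpoints both would be outside, and control would have 15 peaks over the 4 loci, the same as large T.

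The Cdkn2 window held the strongest site of all, 3 sites whose spacing could fit the 3 starts of Cdkn2a and Cdkn2b, and more covered sequence in large T than in control cells. The RefSeq starts of p16, Arf and Cdkn2b are 12427 and 16413 bp apart in GRCm38.p6, all on the minus strand. Of the 20 possible trios of control peaks here, 1 could hold 3 points so spaced, and of the 35 trios of large T peaks also 1, made of the same 3 sites. The sites are named p16, Arf and Cdkn2b below from this spacing, not from an mm9 annotation.

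The Arf site was called at chr4:88939927-88941978 in control cells (2052 bp, score 599.70) and chr4:88939797-88942227 in large T cells (2431 bp, score 527.44). Its rank was 2097 among control peaks and 3444 among large T peaks, at percentiles 97.2 and 94.6. The Cdkn2b site (chr4:88955779-88957580 in control cells) scored 445.32 and 483.00, at percentiles 91.5 and 92.7, with widths of 1802 and 1832 bp. The p16 site (chr4:88926898-88929387 in control cells) scored 287.84 and 331.22, at percentiles 78.5 and 81.7, with widths of 2490 and 2536 bp. All 3 were called in both lists with differences of -2.65, 1.13 and 3.20 points, and the order Arf, Cdkn2b, p16 was the same in both.

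Between the Arf and Cdkn2b sites, and on the side where the RefSeq table lists the long noncoding RNA Gm12610, a weaker site ranked higher in large T cells. It was called at chr4:88947644-88948818 in control cells (1175 bp, score 133.34) and chr4:88947514-88948872 in large T cells (1359 bp, score 261.21). The percentiles were 48.4 (control) and 73.3 (large T), a shift of 24.8 points, and 94.6% of all pairs shifted no further up.

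The largest change in extent was at the site nearest the left edge of the window, on the 3′ side of the p16 start. The control peak (chr4:88919021-88921115) was 2095 bp wide and the large T peak (chr4:88918660-88924408) 5749 bp wide, or 2.74 times as wide. Its right edge lay 3293 bp further towards the p16 site, which left 2537 bp between the peaks where the control list left 5782 bp. Of all pairs in the lists, 26 had a larger ratio, and 0.5% were at least 2 times as wide with large T. By whole-list percentile the score did not rise with the width, at 89.73 (percentile 30.4) in control and 87.25 (percentile 28.6) in large T cells. The site was higher with large T by 11.2 points with lists of equal length and by 4.82 points among shared peaks. Of the 63258 large T peaks, 92 (0.145%) were at least 5749 bp wide, and 24 of them had a whole-list percentile at or below 28.6.

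Beyond the window on the same side, the site at chr4:88903177-88904331 had percentile 77.0 in control and 58.1 in large T cells, with widths of 1155 and 1122 bp. A large T peak without a control counterpart lay next to it at chr4:88900147-88901151 (1005 bp, score 141.46, percentile 49.7), and the nearest control peak was 2.03 kb away. In the whole large T list 14.8% of peaks had no counterpart. Tiles of the same length held at least 6 control peaks in 15.3% and at least 7 large T peaks in 6.11% of cases, and no peak in 30.5% (control) and 35.4% (large T). Covered length in the window and its flanks was 10.8 kb in control and 16.0 kb in large T cells, or 148.9%. Without the site that widened, a count made after seeing the data, it was 118.6%. On chromosome 4 as a whole the large T list had 92.3% as many peaks as the control list, against 84.2% over all chromosomes.

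**Figure D2:**
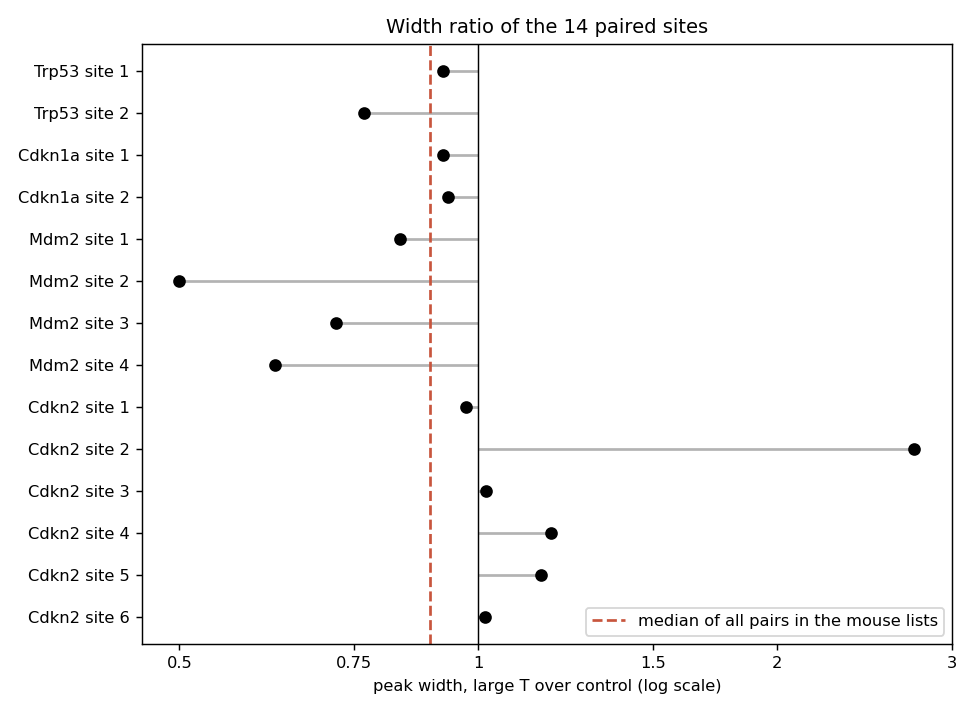
Width of the large T peak over the control peak for the 14 paired sites, on a log scale, with sites numbered along each gene in the direction of transcription (Cdkn2: along the chromosome). All 4 Mdm2 sites lie left of 1 and 5 of 6 Cdkn2 sites right of it, with Cdkn2 sites 1, 3 and 6 close to 1. The dashed line marks the median of all pairs.

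The direction of the width change differed between loci. Large T peaks were narrower at 9 of 14 sites and wider at 5, where 71.5% of all pairs were narrower and 28.4% wider. Those narrower were both Trp53 sites, both Cdkn1a sites, all 4 Mdm2 sites and 1 Cdkn2 site, and the 5 wider sites were all at Cdkn2. Some Cdkn2 widths were nearly equal, with differences of 46 bp at the p16 site, 30 bp at the Cdkn2b site and -33 bp at the narrower site. The ratio of widths, large T over control, ran from 0.50 to 0.83 at Mdm2 and from 0.97 to 2.74 at Cdkn2, and its median over all pairs was 0.89. Sites of a locus are neighbours in the same 2 libraries and are not replicates. Over the 4 loci the large T list covered 32.3 kb and the control list 33.9 kb, or 95.1%, which became 83.3% without the Cdkn2 site that widened.

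**Figure D3:**
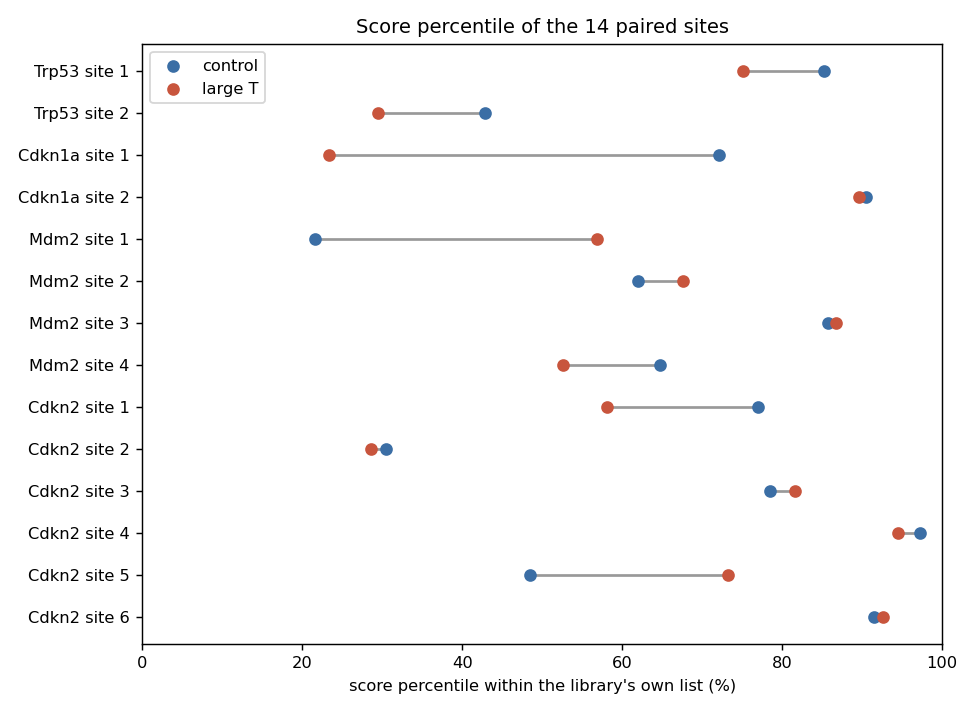
Score percentile of each of the 14 paired sites within its own list, control and large T, joined by a line. The 6 sites at gene starts (Trp53 site 1, Cdkn1a site 2, Mdm2 site 3 and Cdkn2 sites 3, 4 and 6) stay at or above 75.1 in both lists, and Cdkn1a site 1 and Mdm2 site 1 lie far apart. Cdkn2 sites 3, 4 and 6 were placed at starts from spacing alone.

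The 6 sites at starts of the 5 genes, those of Cdkn2a and Cdkn2b placed from spacing alone, ranked high in both lists by score percentile. They lay between percentiles 78.5 and 97.2 in control and between 75.1 and 94.6 in large T cells, with shifts from -10.2 to 3.20 points and a median size of 1.89. By score per base of width the shifts were 22.3 points for Mdm2, -16.5 for Trp53 and -13.1 for Arf. These shifts include changes in width as well as in score. The 8 sites elsewhere lay between 21.6 and 77.0 in control and between 23.3 and 73.3 in large T cells, with shifts from -48.8 to 35.4 points and a median size of 16.1. High-ranking sites shifted less over the whole lists too. The median size was 4.98 points for the 18587 pairs above control percentile 75 and 13.6 points for the 34789 pairs at or below it. The grouping into start sites and others was made after the values were seen. Starts of neighbouring genes were not placed in mm9, so a site counted as elsewhere may lie at the start of another gene.

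Over all 14 sites, 8 were lower and 6 higher in large T cells, against 61.8% and 38.2% of all pairs. Shifts of over 25 points were seen at 1 site downward (upstream of Cdkn1a) and at 1 site upward (upstream of Mdm2), against 13.2% and 5.3% of all pairs. The median shift was -1.35 points at these sites and -3.21 points over all pairs. When peaks were ranked against shared peaks alone, so that the lists had about the same length, 6 sites were lower and 8 higher, and all pairs split 49.3% and 50.7%. Over 25 points, 1 site was then lower and 2 higher, against 8.28% and 8.54% of all pairs.

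**Figure D4:**
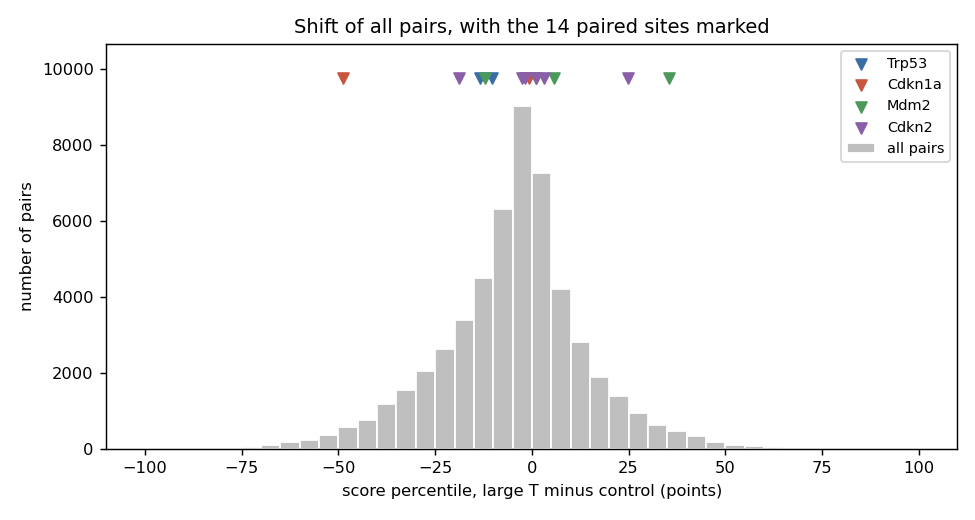
Histogram of the score percentile in large T minus control cells for all 53376 mouse pairs, in bins of 5 points, with triangles for the 14 sites near the checkpoint genes. Cdkn1a has the triangle at -48.8 and Mdm2 the triangle at 35.4.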

How the data were processed

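Each library's deposited file is a headerless peak list with positions in whole base pairs, a name beginning with MACS and a score. The deposited score has a lowest value of about 50 and no stated definition, so it served to rank peaks within a list only. The submitters' processing notes name mm9 as the build and, without roles, Bowtie, SAMtools, bedtools and CASAVA. Caller settings are not given in the sources used here. Lists were read as BED and starts printed 1-based. Windows were those of the selection rule. Pairs were formed 1 to 1, longest overlap first, and tiles were laid end to end on each chromosome. Overlap, pairing and window functions were tested on simulated lists. Promoters and neighbours came from RefSeq tables of GRCm38.p6, in which all 5 genes were found, and no position was converted between builds. Other genes of the pathway were not placed in mm9 here. Members and lists were chosen with earlier results of these data known, and the motifs after the sequences were seen. The rule named all 5 genes and every peak within 20 kb. Alternatives were the distance, the overlap rule, stricter and equal-length lists and the ranking. Python 3.11.15, numpy 2.4.6, pandas 2.3.3, scipy 1.17.1 and matplotlib 3.10.9 were used.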

Additional observations from a re-analysis of the deposited data

How the results depend on the processing

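The number of peaks followed the distance from the windows: control and large T had 9 and 8 peaks within 0 kb, 10 and 9 within 10 kb, and 25 and 24 within 50 kb. Among the highest-scoring 50% of each list the order of the lists turned, to 10 control and 11 large T peaks (Mdm2: 3 and 4). Large T covered 95.1% of the control length within 20 kb and 120.4% within 0 kb, a reversal that ended without the widened Cdkn2 site (98.7%, an alternative added after seeing the data). Sites over 25 points higher in large T numbered 2 with equal list lengths, 2 ranked among shared peaks, 2 ranked within the chromosome and 3 by score per base of width, against 1. The shift of the Cdkn1a gene site turned to 0.95 with equal list lengths and 1.22 among shared peaks, that of the widened Cdkn2 site to 11.2 and 4.82, that of the Cdkn2b site to -0.0081 within the chromosome and -1.36 per base of width, and that of the Mdm2 site near Cpm to 7.70 per base of width. The upstream Cdkn1a site stayed between -64.0 and -43.6 points and the rising site upstream of Mdm2 between 34.9 and 57.9 under all 4 rankings tried. Ranking by score per base of width includes the width change of a site, so it is not a separate result on rank. No paired analysis was possible because each group had 1 library. Depth is unknown.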
